A study of Mus musculus with 16 samples.

Results

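The AP-1 family comprised 8 genes here: the Fos genes Fos, Fosb, Fosl1 and Fosl2, the Jun genes Jun, Junb and Jund, and Atf3. They were taken by gene symbol from the gene tables of both tissues. All 8 were measured among 38933 genes in cortical bone, and 7 were measured among 21011 genes in skeletal muscle, where Fosl1 was not analysed. The mice were female C57BL/6, 18 months old at the start, with no genetic modification named in the labels. They received BAY2416964 (BAY), an oral antagonist of the aryl hydrocarbon receptor (AhR), at 30 mg/kg by gavage on 5 days per week for 8 weeks, or the same vehicle of ethanol, Solutol and water without it (VEH). Bulk RNA-seq gave 1 library per mouse and tissue, from the tibialis anterior muscle (4 VEH, 4 BAY) and from cortical bone shafts (4 VEH, 4 BAY), 16 libraries in all. The sources used here do not say whether muscle and bone came from the same mice. The bone shafts had been digested with collagenase after the marrow stromal cells were taken, and were then frozen.

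AP-1 is a transcription factor built from pairs of basic leucine zipper proteins. Jun proteins pair with each other or with Fos proteins, whereas Fos proteins need a Jun partner, and Atf3 pairs with Jun proteins. Fos, Fosb, Junb and Atf3 are immediate-early genes, whose transcripts appear within minutes of a growth factor, calcium, mechanical or stress signal and decay quickly. In skeletal muscle the family is known for its response to contraction and injury. In bone, Fos is needed for osteoclast formation, Fosl1, Fosl2 and a short form of Fosb drive osteoblasts and bone mass, and mechanical loading raises Fos in bone cells. AhR itself binds DNA with its partner ARNT at the letters GCGTG.

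Reads counted on genes ranged from 6131925 to 9262383 per muscle library and from 930306 to 6951916 per bone library, so that a value of 3 reads corresponded to 0.324 to 0.489 CPM (counts scaled to a common library total) in muscle and to 0.431 to 3.23 CPM in bone. These limits cover counting error only. All 6 muscle fibre markers were present in every muscle library. In bone, the 7 osteoblast and osteocyte markers summed to 949 to 21610 CPM, and the 6 muscle fibre markers to 21.8 to 31520 CPM, highest in BAY replicates 1 and 2. Olfactory receptor genes were taken as background. They had a median of 0.0284 to 0.0679 CPM per kilobase over 43 genes in muscle and of 0.0303 to 8.50 over 1355 genes in bone. Each table held only genes with at least 5 reads over its 8 libraries, so the 2 medians cover different genes. The median times a gene's exon length is given below as the background of a library, and its source was not tested. In muscle, the column of VEH replicate 3 carries a word for replacement, and this library had 298 CPM of 5 adipocyte markers against 38.5 to 55.7 CPM in the others. It was also the highest muscle library for fibroblast (189.5 against 50.4 to 75.0 CPM), osteoblast and osteocyte (87.6 against 12.6 to 25.5), Schwann (36.2 against 13.3 to 26.1) and macrophage markers (18.3 against 5.37 to 8.59). The summed level of each of the 8 marker lists (muscle fibre, osteoblast and osteocyte, adipocyte, blood and marrow, macrophage, endothelium, fibroblast, Schwann) overlapped between VEH and BAY in both tissues. RNA from fewer cells of a type and less RNA per cell cannot be told apart in such bulk samples.

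The promoters of 7 members were in the RefSeq table (build GRCm38.p6), from 250 bases before the annotated start to 50 bases from it on. Each was placed on GRCm39 by a single exact match. The RefSeq start equals the GENCODE gene start for Fos and Jun, lies 30 bases before it for Junb and 1210 bases before it for Jund, and lies inside the GENCODE gene for Fosb (6 bases), Fosl2 (671) and Atf3 (34706). The 4 below are printed because Fos and Junb were the members called in muscle, the muscle groups of Jun did not overlap, and Atf3 is the stress gene beside them. Capitals mark the AhR core letters GCGTG, the letters TGACG found in binding sites of the cAMP response factor CREB, and the TATA element TATAAA, each on either strand.
Fos (chr12:85520414-85520713, plus strand): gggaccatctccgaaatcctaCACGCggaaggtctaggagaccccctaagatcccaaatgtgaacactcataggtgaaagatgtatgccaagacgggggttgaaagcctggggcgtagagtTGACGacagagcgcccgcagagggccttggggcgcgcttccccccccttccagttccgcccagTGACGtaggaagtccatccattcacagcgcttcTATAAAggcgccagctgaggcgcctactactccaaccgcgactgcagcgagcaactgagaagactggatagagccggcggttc
Jun (chr4:94940410-94940709, minus strand): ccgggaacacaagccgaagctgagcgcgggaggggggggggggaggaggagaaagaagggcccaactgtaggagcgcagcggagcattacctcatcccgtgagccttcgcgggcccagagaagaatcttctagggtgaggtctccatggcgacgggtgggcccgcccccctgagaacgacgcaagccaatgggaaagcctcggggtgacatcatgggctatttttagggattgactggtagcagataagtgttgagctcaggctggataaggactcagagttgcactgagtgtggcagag
Junb (chr8:85705328-85705627, minus strand): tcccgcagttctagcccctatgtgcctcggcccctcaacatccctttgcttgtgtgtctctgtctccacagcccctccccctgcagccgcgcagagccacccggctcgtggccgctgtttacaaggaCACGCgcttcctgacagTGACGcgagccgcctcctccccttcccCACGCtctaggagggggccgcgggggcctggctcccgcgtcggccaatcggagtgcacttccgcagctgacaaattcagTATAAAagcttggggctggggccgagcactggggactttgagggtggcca
Atf3 (chr1:190915481-190915780, minus strand): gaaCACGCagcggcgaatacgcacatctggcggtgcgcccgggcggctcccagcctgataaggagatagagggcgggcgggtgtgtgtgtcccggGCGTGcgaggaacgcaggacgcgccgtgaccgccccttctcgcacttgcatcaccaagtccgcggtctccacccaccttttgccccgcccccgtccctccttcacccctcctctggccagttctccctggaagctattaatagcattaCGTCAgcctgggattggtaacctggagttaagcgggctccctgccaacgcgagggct

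GCGTG was found in 4 of the 7 promoters (Fos, Fosb, Junb and Atf3) against 32.4% of 32851 mouse promoters of the same length. TGACG, searched after the sequences had been seen, was found in the same 4 promoters against 20.8% of all, and Fos carried it at -129 and at -66 bases from the start. TATAAA was found in Fos at -33 and in Junb at the RefSeq start, against 13.6% of all promoters. The AP-1 element TGANTCA, the cAMP response element TGACGTCA, which contains TGACG, and the CArG box bound by serum response factor were found in 0 of the 7 windows, against 7.81%, 1.79% and 1.63% of all promoters. No match says only that these letters are not in this window, which for Jund ends before the GENCODE gene begins. The Jun promoter printed above held none of the letters searched.

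The comparison in skeletal muscle asks which transcripts BAY changed in that tissue. Fos and Junb passed the threshold used here, an unadjusted P value under 0.05 in limma with at least a 2-fold change, and both were higher in BAY-treated mice. Across all genes 2.43% passed it, 1.33% in the direction of higher values in BAY. The fold change was above 0 on the log2 scale for 7 of 7 members, with a median of 0.65 against 0.06 over all genes, and 55.2% of all genes were above 0. An unadjusted P value under 0.05 was reached by 4 of 7 members (Fos, Fosl2, Jun and Junb), against 6.71% of all genes for higher values. No gene of the table had a Benjamini-Hochberg adjusted P value under 0.05 in limma, and 2056 genes had an unadjusted one. The plot of muscle levels shows the values of each mouse.

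**Figure D1:**
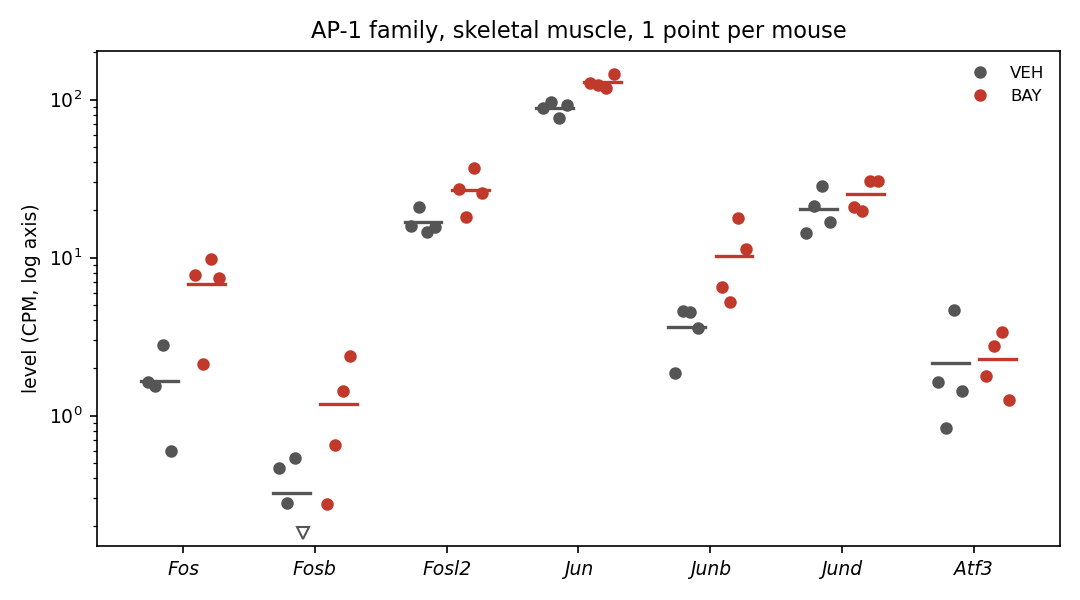
Level of 7 AP-1 genes in skeletal muscle in CPM on a log axis, with 1 point per mouse (grey VEH, red BAY) and a line at each group mean; the open triangle is the VEH library with 0 Fosb reads, drawn at the foot of the axis. For Jun and Junb the lowest BAY value lies above the highest VEH value, and for Fos a single BAY library falls among the VEH libraries.

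Among the Fos genes of skeletal muscle, Fos (ENSMUSG00000021250, chromosome 12, 85520664 to 85524047, plus strand, mm39), the founding immediate-early member, was at 1.63, 1.53, 2.81 and 0.596 CPM in VEH replicates 1 to 4. In BAY replicates 1 to 4 it was at 7.71, 2.12, 9.80 and 7.43 CPM. BAY replicates 1, 3 and 4 lay above every VEH library, and BAY replicate 2 lay below VEH replicate 3. The means were 6.77 ± 3.27 CPM in BAY and 1.64 ± 0.906 CPM in VEH (SD, n = 4), a log2 fold change of 2.04 (SE 0.52), or 4.11-fold (95% interval 1.90 to 8.87). The limma P value was 0.00156 unadjusted and 0.291 adjusted. An exact permutation of the libraries, two-sided, gave P = 0.0571, where 0.0286 is the smallest that 4 against 4 mice can give. The values rest on 5 to 26 reads in VEH and 13 to 76 reads in BAY. Without VEH replicate 3 the log2 fold change was 2.36, and with each library left out in turn it ranged from 1.62 to 2.53. It was 1.48 with a pseudocount of 1 CPM in place of the offset. With a pseudocount of 0.1 CPM in place of the offset, the adjusted limma P value of Fos was 0.0446, and over the other alternatives it ranged from 0.0693 to 0.651.

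Fosl2 (ENSMUSG00000029135, chromosome 5, 32293145 to 32315186), a Fos gene with steadier expression that regulates matrix genes, was at 15.9, 20.9, 14.5 and 15.6 CPM in VEH and at 27.1, 18.1, 36.8 and 25.5 CPM in BAY. Again BAY replicate 2 alone fell into the range of the VEH libraries. The log2 fold change was 0.65 (SE 0.20), or 1.57-fold, with limma P values of 0.00533 unadjusted and 0.322 adjusted and an exact permutation P value of 0.0571. Fosb (ENSMUSG00000003545, chromosome 7, 19036621 to 19043976), which also encodes the long-lived short form, had 4, 2, 5 and 0 reads in VEH and 2, 4, 11 and 17 reads in BAY. These correspond to means of 0.321 ± 0.241 CPM in VEH and 1.18 ± 0.932 CPM in BAY (SD, n = 4). Fosb exceeded the background of the muscle library in 5 of 8 libraries. Its log2 fold change on the deposited scale was 3.60 (SE 1.95), with an unadjusted limma P value of 0.0874 and an exact permutation P value of 0.143. It was 1.10 without the VEH library that had 0 reads. It was 1.57 with a pseudocount of 0.1 CPM, 0.64 with 1 CPM, and 1.79 with limma-voom on the recovered reads, with unadjusted P values of 0.0226, 0.0159 and 0.0231.

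Among the Jun genes of skeletal muscle, Jun (ENSMUSG00000052684, chromosome 4, 94937271 to 94940459, minus strand), the partner of every Fos protein and the most abundant member in muscle, was at 88.0, 96.2, 75.9 and 92.1 CPM in VEH. In BAY it was at 128.1, 123.8, 118.3 and 145.7 CPM. The groups did not overlap, as for 5.73% of all genes, and the means were 88.0 ± 8.76 and 129.0 ± 11.9 CPM (SD, n = 4). The log2 fold change of Jun was 0.55 (SE 0.12), or 1.47-fold (95% interval 1.22 to 1.75), under the 2-fold threshold, with a limma P value of 4.65e-04 unadjusted and 0.230 adjusted and an exact permutation P value of 0.0286. Jun had the smallest relative spread of the family, an SD of 0.15 in VEH and 0.13 in BAY on the log2 scale, with 690 to 1039 reads per library.

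Junb (ENSMUSG00000052837, chromosome 8, 85701113 to 85705347, minus strand), an immediate-early Jun gene that is known to maintain muscle mass, was at 1.86, 4.60, 4.53 and 3.58 CPM in VEH and at 6.47, 5.22, 17.8 and 11.4 CPM in BAY. All BAY libraries lay above all VEH libraries, and BAY replicate 2 was again the lowest of its group. The means were 3.64 ± 1.28 and 10.2 ± 5.71 CPM (SD, n = 4), a log2 fold change of 1.40 (SE 0.38), or 2.65-fold (95% interval 1.5 to 4.67). The limma P value was 0.00254 unadjusted and 0.295 adjusted, and the exact permutation P value was 0.0286. Jund (ENSMUSG00000071076, chromosome 8, 71151599 to 71153265), the constitutive Jun gene that restrains cell growth, ranged from 14.3 to 28.4 CPM in VEH and from 19.6 to 30.6 CPM in BAY. The groups overlapped, with a log2 fold change of 0.35 (SE 0.22, unadjusted limma P value 0.131, exact permutation P = 0.257). Without VEH replicate 3, which had the highest Jund of its group, it was 0.53 (unadjusted limma P value 0.0195). With any other single library left out it was 0.20 to 0.46 (unadjusted limma P values 0.0736 to 0.381). Only 1 of the 15 alternatives gave an unadjusted limma P value under 0.05.

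Atf3 (ENSMUSG00000026628, chromosome 1, 190902493 to 190950236), the member induced by cell stress and nerve or muscle injury, was at 1.63, 0.837, 4.64 and 1.43 CPM in VEH and at 1.79, 2.77, 3.35 and 1.26 CPM in BAY. VEH replicate 3 was the highest of all 8 libraries and VEH replicate 2 the lowest. The log2 fold change was 0.30 (SE 0.51, 95% interval -0.79 to 1.40, unadjusted limma P value 0.561, exact permutation P = 0.657), and it was -0.05 without VEH replicate 2 and 0.78 (unadjusted limma P value 0.113) without VEH replicate 3. In GENCODE release M39 Jun overlaps Junos, Junb overlaps Prdx2, Jund overlaps Gm11175 and Fosl1 overlaps Ccdc85b on the opposite strand, and their reads cannot be told apart without strand. The kit of the muscle libraries kept strand, but the sources used here do not say whether counting used it. In muscle the overlapping gene Prdx2 averaged 24.7 CPM in VEH and 23.5 CPM in BAY, above Junb (log2 fold change -0.06). Junos averaged 2.04 and 1.84 CPM (-0.27), Ccdc85b 13.2 and 16.7 CPM (0.35), and Gm11175 was at 0 in the VEH libraries and averaged 0.26 CPM in BAY.

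**Figure D2:**
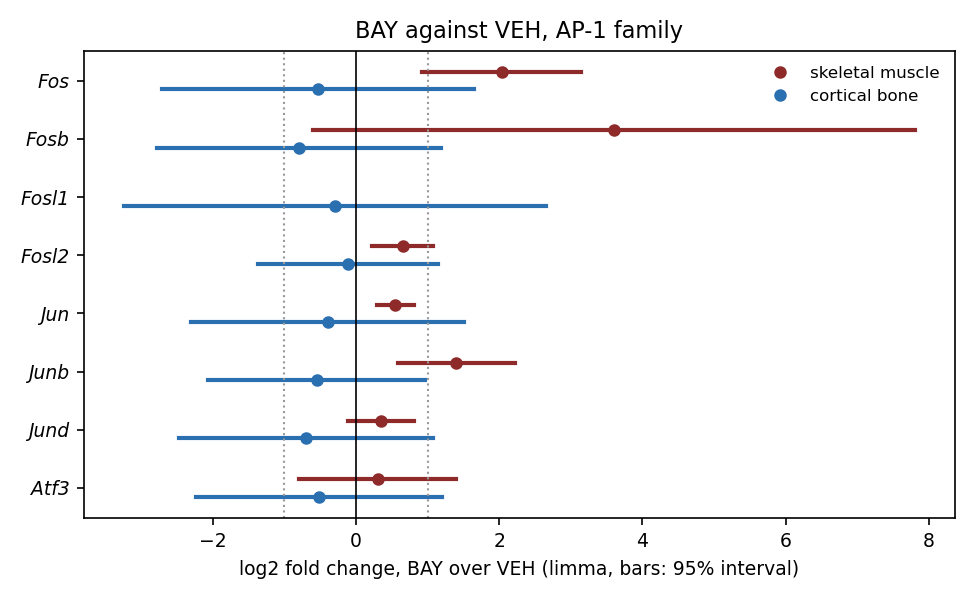
Log2 fold change of BAY over VEH for each AP-1 gene in skeletal muscle (red) and cortical bone (blue), with bars for the 95% interval from limma and dotted lines at a 2-fold change; Fosl1 was analysed in bone only. The muscle intervals of Fos, Fosl2, Jun and Junb lie above 0, and all 8 bone intervals include 0.

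Genes that act around the family were examined in skeletal muscle from 6 lists with 69 genes measured. Of these, 50 were above 0 on the log2 scale (55.2% of all genes), 4 were called and higher (1.33% of all genes), and 16 were higher at an unadjusted P value under 0.05 (6.71% of all genes). Among 17 other immediate-early genes, 15 were higher in BAY-treated mice and 3 were called (Nr4a1, Egr1 and Arc). The list had a median of 0.77 on the log2 scale. Nr4a1, an orphan nuclear receptor induced in muscle by contraction and adrenergic signals, was at 34.6, 65.4, 48.5 and 44.5 CPM in VEH and at 140.2, 80.4, 155.5 and 128.2 CPM in BAY. Its groups did not overlap, with a log2 fold change of 1.38 (SE 0.21, limma P values 1.75e-05 unadjusted and 0.184 adjusted, exact permutation P = 0.0286). Egr1, a zinc finger factor of the serum response, averaged 12.0 ± 6.58 CPM in BAY and 5.08 ± 2.73 CPM in VEH (SD, n = 4; log2 fold change 1.28, limma P values 0.0129 unadjusted and 0.387 adjusted). Its groups overlapped, with BAY replicate 2 at 5.55 CPM below VEH replicates 3 and 4 at 7.99 and 6.56 CPM, and the exact permutation P value was 0.114. Arc, a synaptic immediate-early gene, averaged 1.63 ± 0.355 and 0.786 ± 0.330 CPM (1.13), on 3 to 15 reads per library. The flow-responsive factors Klf2 and Klf4, the matrix protein gene Ccn1 and the growth arrest gene Btg2 had unadjusted P values under 0.05 in limma without reaching a 2-fold change. None of the 17 was lower at that P value.

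Feedback genes limit the family once it is induced. Of 10 phosphatases and mRNA decay factors, 7 were higher (median log2 fold change 0.14), and 1 was called, Zfp36, whose product binds and destabilizes immediate-early mRNAs. Zfp36 was at 4.31, 6.27, 5.40 and 5.13 CPM in VEH and at 16.8, 10.1, 16.8 and 12.6 CPM in BAY, with no overlap between the groups (log2 fold change 1.40, SE 0.20, limma P values 1.00e-05 unadjusted and 0.184 adjusted, exact permutation P = 0.0286). Dusp1, the phosphatase that switches off the stress kinases, averaged 50.6 ± 10.1 and 28.9 ± 4.37 CPM (SD, n = 4; log2 fold change 0.79), and Dusp8 was the third member of the list with an unadjusted P value under 0.05.

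The remaining lists held no called gene in muscle. Of 9 stress genes around Atf3, 6 were higher (median 0.16), and Gadd45b (log2 fold change 0.79) and Ppp1r15a (0.70) had unadjusted limma P values of 2.61e-04 and 0.00124. Among 10 other leucine zipper partners measured, 8 were higher (median 0.43), and Mafk (0.42) and Jdp2, a repressor of Jun (0.61), had unadjusted limma P values of 0.0322 and 0.0417. Of 14 kinases and factors that induce the family, 9 were higher (median 0.03). The smallest unadjusted P value of that list was 0.0345, for Srf, the serum response factor (0.31). Of 9 textbook AP-1 targets measured among 14 listed, 5 were higher (median 0.07), and Vegfa, the vascular growth factor, had the smallest unadjusted limma P value, 0.0213, with a log2 fold change of 0.35. Of the 69 genes of the 6 lists, 0 were lower in BAY-treated muscle at an unadjusted P value under 0.05 in limma, against 3.07% of all genes.

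In cortical bone, 0 of 8 members passed the threshold in limma, against 0.640% of all genes, and the groups overlapped for all 8, while they did not for 0.406% of all genes. The unadjusted P values were 0.401 and above, and limma-voom on the recovered reads also called 0 of 8, against 1433 of all 38933 genes. All 8 fold changes were below 0, from -0.79 for Fosb to -0.11 for Fosl2 on the log2 scale, whereas 80.9% of all genes were above 0 and the median of all genes was 0.84. All genes include 1355 olfactory receptor genes and were not limited to the level of the members. The background was 0.0303 CPM per kilobase in VEH replicate 1 and 1.225 to 8.50 in the other bone libraries. The part of this background in the values over all genes was not tested. After each library was centred on its median, the members lay between -1.64 and -0.96, and 0 of 8 were called, against 443 of all 38933 genes. The plot of bone levels shows how wide each group was.

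**Figure D3:**
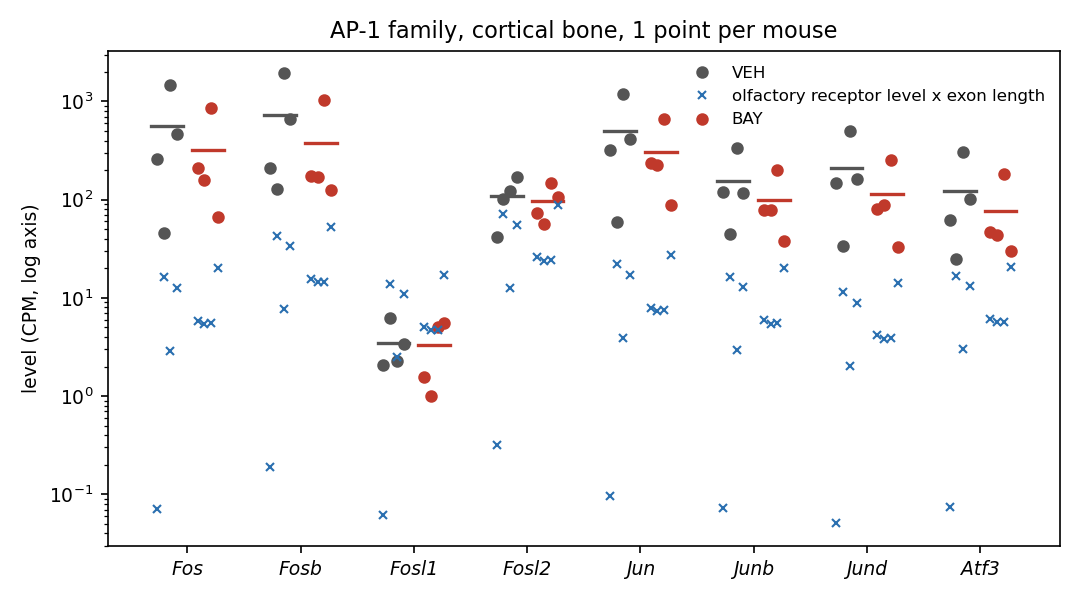
Level of the 8 AP-1 genes in cortical bone in CPM on a log axis, with 1 point per mouse (grey VEH, red BAY), a line at each group mean, and blue crosses for the background of each library, its olfactory receptor level times the exon length of the gene. The VEH and BAY points of every gene overlap, and Fosl1 alone lies mostly at or under the crosses.

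Fos in cortical bone was at 256, 46.0, 1472 and 468 CPM in VEH replicates 1 to 4 and at 208, 160.0, 853 and 66.6 CPM in BAY replicates 1 to 4. The highest library held 32.0 times the level of the lowest, and both were VEH libraries. The log2 fold change was -0.53 (SE 1.01, 95% interval -2.70 to 1.65, unadjusted limma P value 0.610, exact permutation P = 0.686). Its sign turned when single libraries were left out, to 0.24 without VEH replicate 3 and to 0.02 without BAY replicate 4. Fosb was at 212, 128, 1935 and 666 CPM in VEH and at 176, 169.6, 1035 and 126 CPM in BAY. VEH replicate 3 and BAY replicate 3 were the highest of their groups here too, and the log2 fold change was -0.79 (SE 0.91). It was -0.07 without VEH replicate 3, -1.38 without VEH replicate 2 and -1.48 without BAY replicate 3.

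Of the other Fos genes in cortical bone, Fosl2 was at 41.9, 101, 121 and 171 CPM in VEH and at 73.3, 57.1, 148 and 105 CPM in BAY, a spread of 4.09-fold, with a log2 fold change of -0.11 (SE 0.58). The background made up 71.4 of the 101 CPM in VEH replicate 2 and 88.4 of the 105 CPM in BAY replicate 4. After it had been subtracted, the median level of Fosl2 was 4.28 in place of 9.94 CPM per kilobase, its values ranged from 16.9 to 124 CPM (7.31-fold), and its log2 fold change was -0.54. Fosl1 (ENSMUSG00000024912, chromosome 19, 5497575 to 5505974), a Fos gene of bone matrix formation, had 1.00 to 6.22 CPM. It exceeded the background in 2 of 8 libraries, whereas each of the other 7 members exceeded it in 8 of 8. The background of Fosl1 was therefore as large as most of its values, and its log2 fold change was -0.29 (SE 1.36). Ccdc85b, which overlaps Fosl1 on the opposite strand, averaged 48.2 CPM in VEH and 54.1 CPM in BAY in these libraries (log2 fold change 0.46), above every Fosl1 value.

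Jun in cortical bone was at 323, 58.9, 1185 and 415 CPM in VEH and at 238, 225, 664 and 88.1 CPM in BAY, with a log2 fold change of -0.39 (SE 0.88, unadjusted limma P value 0.663, exact permutation P = 0.743). As for Fos, its sign turned without VEH replicate 3 (0.25) or BAY replicate 4 (0.08). Junb was at 119.7, 44.2, 339 and 118 CPM in VEH and at 79.1, 79.0, 199 and 37.6 CPM in BAY. Jund was at 149, 34.1, 495 and 162 CPM in VEH and at 79.6, 87.7, 256 and 33.3 CPM in BAY. Their log2 fold changes were -0.54 (SE 0.70) and -0.69 (SE 0.82). For Jund it was -0.09 without VEH replicate 3 and -1.38 without VEH replicate 2. Atf3 was at 61.4, 24.9, 306 and 101 CPM in VEH and at 46.9, 43.8, 182 and 30.1 CPM in BAY. Its log2 fold change was -0.52 (SE 0.79, unadjusted limma P value 0.526, exact permutation P = 0.600), and it was 0.11 without VEH replicate 3. Of 75 other listed pathway genes measured in bone, 0 were called and 0 had an unadjusted limma P value under 0.05. Of all 38933 genes, 249 (0.640%) were called and 249 had such a P value, so that 0 of 75 says little about these genes. Against the 80.9% of all genes above 0, 2 of 17 other immediate-early genes (median log2 fold change -0.55), 3 of 14 AP-1 targets (-0.63), 3 of 10 phosphatases and mRNA decay factors (-0.24) and 3 of 9 stress genes (-0.20) were above 0. The other leucine zipper partners, with 8 of 11 above 0 (0.30), and the kinases and factors that induce the family, with 10 of 14 (0.28), had medians above 0. The limit from background that is given above for the share of all genes holds here too.

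Fos, Fosb, Jun, Junb, Jund and Atf3 rose and fell together across the bone mice, as the plot across the cortical bone libraries shows. Over the 8 libraries, Jun and Atf3 had the same order as Fos (Spearman rho 1.00 for both), from VEH replicate 2 at the foot to VEH replicate 3 at the top. On the log2 scale Pearson's r with Fos was 0.993 for Jun, 0.983 for Jund, 0.980 for Atf3, 0.975 for Junb and 0.941 for Fosb, with exact permutation P values of 2.73e-04 or smaller (two-sided), and adjusted values of 0.00104 or smaller over 19 relations. Spearman's rho was 0.952 for Jund and Junb and 0.976 for Fosb (exact permutation P = 0.00114, 0.00114 and 3.97e-04, adjusted 0.00434, 0.00434 and 0.00251). The smallest exact P values were those of Jun and Atf3, 2.48e-05 for r and 4.96e-05 for rho. Without the 2 libraries farthest from the median of Fos, r was 0.934 to 0.986 for these 5 genes.

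For Fosl2 and Fosl1 r was 0.34 (rho 0.476, exact permutation P = 0.407 and 0.243) and -0.22 (rho -0.238, exact permutation P = 0.589 and 0.582), with adjusted values of 0.330 to 0.737. The value of Fosl2 depended on the background. With the background subtracted from Fos and Fosl2, a setting chosen after seeing the data, r was 0.895 and rho 0.881 (exact permutation P = 0.00303 and 0.00724, adjusted 0.00605 and 0.0145 over 12 relations, r 0.962 without the 2 farthest libraries). Both genes then share the subtracted level of their library. For the other 5 genes r was 0.955 to 0.997 with that setting. The summed osteoblast and osteocyte markers moved with Fos (r = 0.905, rho = 0.929, exact permutation P = 6.70e-04 and 0.00223, adjusted 0.00212 and 0.00707, r 0.854 without the 2 farthest libraries). For the muscle fibre markers r was -0.10 and rho -0.167 (exact permutation P = 0.798 and 0.703, adjusted 0.842 and 0.786). Among the remaining lists, examined after seeing the data, r with Fos was 0.712 for fibroblast markers, 0.686 for blood and marrow, 0.556 for macrophage, 0.0329 for endothelium, -0.28 for adipocyte and -0.71 for Schwann markers (rho 0.714, 0.738, 0.50, 0.0714, -0.33 and -0.71, adjusted exact permutation P values of 0.0768 and above). For the olfactory receptor level r was -0.29 and rho -0.595 (exact permutation P = 0.519 and 0.132, adjusted 0.646 and 0.251). The part of marker content in the levels of the family was not tested, and CPM values share the total of their library. No sequencing batch is named in the labels.

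**Figure D4:**
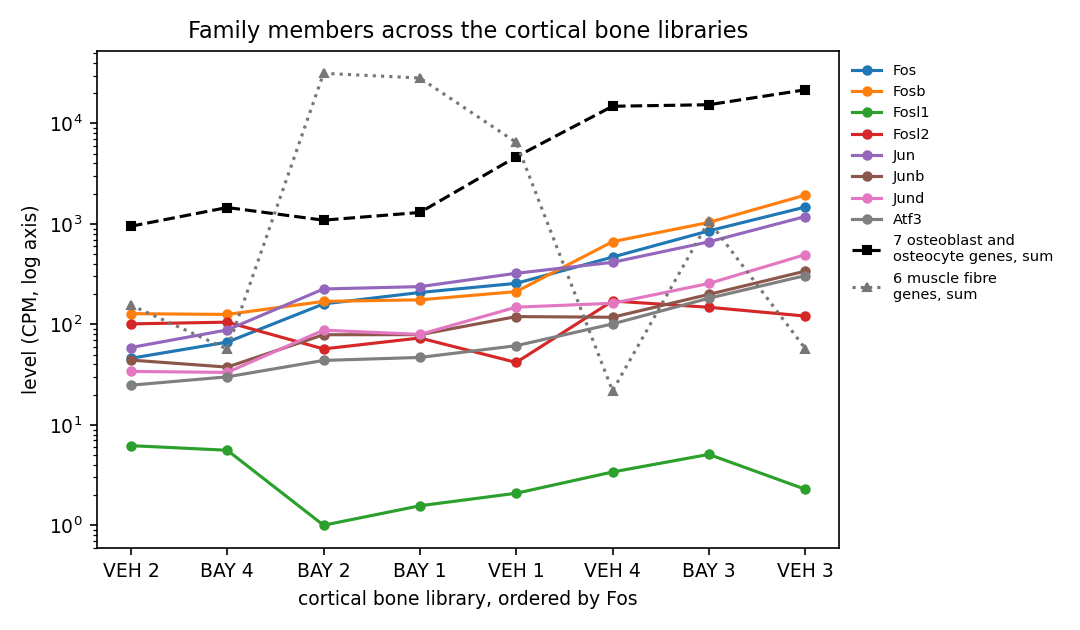
Level of each AP-1 gene in the 8 cortical bone libraries, ordered by Fos, in CPM on a log axis, with the summed osteoblast and osteocyte markers (dashed) and muscle fibre markers (dotted). Jun, Junb, Jund, Fosb and Atf3 climb with Fos and with the osteoblast and osteocyte markers, VEH and BAY libraries are mixed along the order, and Fosl1, Fosl2 and the muscle fibre markers follow other courses before any background is subtracted.

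The same relations were computed in skeletal muscle. Over the 8 muscle libraries r with Fos was 0.812 for Fosl2, 0.785 for Junb, 0.743 for Fosb, 0.718 for Jund, 0.638 for Jun and 0.302 for Atf3 (rho 0.690, 0.810, 0.571, 0.643, 0.50 and 0.524; exact permutation P for r 0.0168, 0.0205, 0.0134, 0.0491, 0.0900 and 0.462). Of these, Fosl2, Junb and Fosb had an adjusted P value for r under 0.05 (0.0399, 0.0433 and 0.0364). Their adjusted values for rho were 0.165, 0.0591 and 0.261, and without the 2 farthest libraries r was 0.732, 0.764 and 0.406. These values include the difference between the groups. The r of Fosb also includes VEH replicate 4, whose value for 0 reads is set by the offset and which was the lowest library for Fos too. As a description of the spread within groups alone, the correlation of deviations from the group means with Fos on the scale of log2(CPM + 1) was 0.64 for Fosl2, 0.65 for Jund, 0.59 for Junb and -0.24 for Jun. The same measure in bone was 0.99 for Jun and Jund, 0.98 for Atf3 and Junb, 0.95 for Fosb and 0.33 for Fosl2, before background was subtracted. The difference in correlation between the tissues was not tested.

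The genes most like Fos by that measure, among genes at 5 CPM or more on average and without the members, also differed between the tissues. In bone, among 23960 genes, they were Snora81 (0.99), a small nucleolar RNA gene, the immediate-early gene Ier2 (0.99), Trp53bp2 (0.99), Ift172 (0.99) and Ahnak (0.99). In muscle, among 8073 genes, they were Abhd11 (0.97), Dcaf12 (0.96), Trafd1 (0.96), Arhgef28 (0.95) and B3gat3 (0.95), none of which is an immediate-early gene of the list. Fos itself averaged only 1.64 CPM in VEH and 6.77 CPM in BAY in muscle, on 5 to 76 reads per library, so its profile there is less well measured than in bone. Fosb and Atf3 averaged under 5 CPM in muscle and have no value by this measure there. These are the highest values of many genes over 8 libraries and are given without a test.

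The make-up of the family differed between muscle and bone. Levels were compared between members per kilobase of exon, and the tissues were normalized separately, so that they stand side by side without a test. In muscle, the order of the medians was Jun (33.6 CPM per kilobase), Jund (12.7), Junb (2.06), Fosl2 (1.88), Fos (1.05), Atf3 (0.700) and Fosb (0.0805). The ranges of Jun and Jund did not overlap, nor did those of Jund and Junb, whereas each later neighbour overlapped the one before it. In bone, the order was Fos (98.4), Jun (87.9), Jund (70.9), Junb (41.4), Fosb (31.1), Atf3 (22.2), Fosl2 (9.94) and Fosl1 (1.40), and neighbours overlapped except Fosl2 and Fosl1.

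Jun thus made up 50.3% to 69.1% of the summed family level per kilobase in the muscle libraries and 15.3% to 25.7% in the bone libraries. Fos made up 0.591% to 5.77% in muscle and 16.2% to 34.0% in bone. The ratio of Jun to Fos per kilobase ranged from 8.92 to 114 in muscle (median 29.96) and from 0.575 to 1.04 in bone (median 0.889). In muscle this ratio had a median of 43.2 in VEH and 13.4 in BAY, with ranges of 20.0 to 114 and 8.92 to 43.2 that overlapped. The summed Jun genes exceeded the summed Fos genes 7.92- to 23.1-fold in muscle, and in bone the same ratio was 0.817 to 1.63. Percentiles among the protein-coding genes of each table were taken on CPM, not scaled by exon length. Fos stood at the 18.5th to 61.8th percentile in the muscle libraries and at the 77.3rd to 99.9th in the bone libraries. For Jun they were 93.7 to 97.4 and 85.2 to 99.9.

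**Figure D5:**
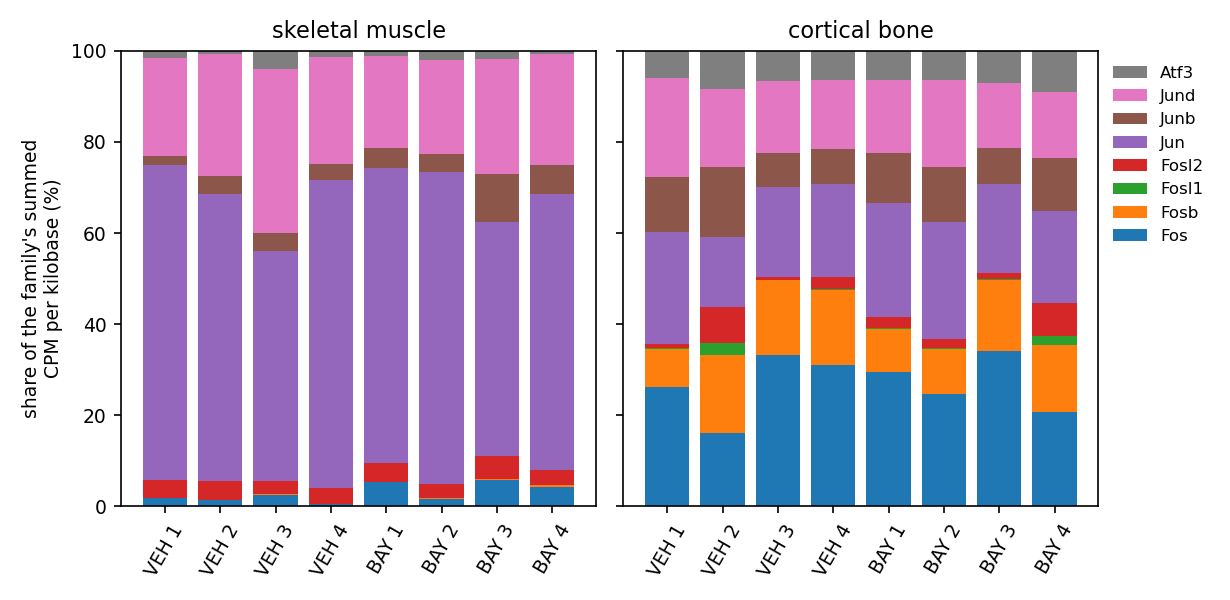
Share of each AP-1 gene in the family's summed CPM per kilobase of exon, as stacked bars for each of 8 skeletal muscle and 8 cortical bone libraries, which were normalized separately. Jun and Jund fill most of each muscle bar, and Fos and Fosb together take a larger part of every bone bar than of any muscle bar.

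Whether BAY acted differently on the family in muscle and bone was tested as an interaction of tissue and treatment over 20526 genes of both tables. The fit and the permutation took the libraries of the tissues as independent, although muscle and bone may come from the same mice. The effect in muscle exceeded that in bone for all 7 members on the log2 scale, by 0.76 for Fosl2 to 4.39 for Fosb. It did so for 32.3% of all genes, whose median difference was -0.40. The share of all genes rested on 1 library. Without bone VEH replicate 1 it was 61.5%, with a median difference of 0.211, and without any other single library it was 24.1% to 39.9%. The value for Fosb rested on muscle VEH replicate 4, which held 0 reads, and was 1.89 without that library and 1.44 on the log2(CPM + 1) scale. By the same threshold 1 of 7 members was called, Junb, against 2.04% of all genes. The difference for Junb was 1.95 (SE 0.82, 95% interval 0.23 to 3.67), with limma P values of 0.0285 unadjusted and 0.997 adjusted. Over all 4900 exchanges of treatment within the tissues its exact permutation P value was 0.0559. For Fos the difference was 2.56 (SE 1.22), with limma P values of 0.05002 unadjusted and 0.997 adjusted and an exact permutation P value of 0.102. For the other 5 members the unadjusted limma P values were 0.0744 and above. The call for Junb was lost without muscle VEH replicate 1, muscle BAY replicate 3 or 4, bone VEH replicate 3 or bone BAY replicate 4, with differences of 1.65, 1.62, 1.84, 1.45 and 1.57.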

How the data were processed

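RNA-seq of tibialis anterior muscle and cortical bone from BAY- and VEH-treated mice (n = 4 per group and tissue) was analysed from 2 gene tables. The authors trimmed and aligned the reads with STAR (version 2.7.8a, per the labels) to mm39, quantified Ensembl release 104 genes in Partek, scaled to CPM, added an offset (0.0004 in muscle, 0.0001 in bone, from the lowest values) and deposited log2 values. Bone RNA was isolated with TRIzol and muscle RNA with a Maxwell kit, and library kits and totals also differed between the tissues.

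The members, lists and tests were chosen with earlier results of these data known. Groups and replicate numbers came from the labels. Reads were recovered from the steps between low values, of which 81.3% to 88.4% up to 50 reads were whole within 0.02. BAY was compared with VEH by limma (version 3.58.1, R version 4.3.3), lmFit and eBayes with trend, on the deposited log2 values without a filter, two-sided, with Benjamini-Hochberg adjustment over all genes of the table, and tested on simulated data. The call threshold was an unadjusted P value of 0.05 with at least a 2-fold change, as in the study. Single genes were also compared by exact permutation over the libraries. Within a tissue, replicates are separate mice. Named genes are the members, every listed gene that was called, the gene of each list with the smallest muscle P value, and the 5 genes most like Fos per tissue. Other listed genes with an unadjusted P value under 0.05 in muscle were named after their values were seen. Exon lengths came from GENCODE release M39. Alternatives were other pseudocounts, a filter at 1 CPM, median centring, no trend, a replicate block, limma-voom on recovered reads, background subtraction in bone and each library left out. The authors' comparisons and proteomics were not used here. Other steps ran in Python 3.11.15 (numpy 2.4.6, pandas 2.3.3, scipy 1.17.1, matplotlib 3.10.9).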

Additional observations from a re-analysis of the deposited data

Results flagged for a closer look

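Among 30 groups of 4 libraries examined, of which chance flags about 1 in 20, Fosb had a library far from the other 3 in 2 groups. In muscle of VEH-treated mice it was replicate 4, with 0 reads, whose gap to the next library was 0.908 of the range on the log2 scale. The offset sets the value of a library with 0 reads, the other 3 had 2 to 5 reads, and on the CPM scale the gap was 0.517 of the range, which does not stand out by the same measure. In cortical bone of BAY-treated mice it was replicate 3, at 1035 CPM, with a gap of 0.841 of the range (0.945 on the CPM scale), where Fos, Jun and the osteoblast and osteocyte markers were also highest of their group.

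The effect of BAY on Junb differed between muscle and bone by 1.95 on the log2 scale, with limma P values of 0.0285 unadjusted and 0.997 adjusted. Its exact permutation P value was 0.0559, and the call was lost for 5 of the 16 libraries when each was left out alone, at unadjusted limma P values of 0.0515 to 0.0777. Junb was higher in 4 of 4 BAY libraries than in any VEH library in muscle, and the groups overlapped in bone.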

How the results depend on the processing

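In skeletal muscle, Fos and Junb were called under all 15 alternatives, 8 of which left out 1 library, and Fosb was also called with a pseudocount of 0.1 CPM (log2 fold change 1.57) and with limma-voom on the recovered reads (1.79), so that 2 or 3 of 7 members were called. In cortical bone 0 of 8 members were called under any alternative. With 1 library left out, Atf3 in muscle lay between -0.048 and 0.78 on the log2 scale. In bone the range was -1.43 to 0.24 for Fos, -1.48 to -0.07 for Fosb, -1.03 to -0.05 for Junb, -1.38 to -0.09 for Jund, -1.19 to 0.25 for Jun, -1.10 to 0.11 for Atf3, -0.66 to 0.16 for Fosl1 and -0.51 to 0.17 for Fosl2, and for Fosl2 it was 0.066 with limma-voom. In bone the SEs of the members were 0.58 to 1.36 on the log2 scale, with 930306 to 6951916 reads per library. The number of members called for the difference between the tissues ranged from 0 to 4 with 1 library left out, while 1.53% to 6.07% of all genes were called, with 4 members without bone VEH replicate 2, where the share was 6.07%, and 3 without muscle VEH replicate 3, where it was 1.79%.

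The number of all genes called in muscle, 510, fell to 52 with a pseudocount of 1 CPM and to 193 with the filter at 1 CPM, which tests fewer genes. In bone, 249 became 82 with that filter, 443 with median centring, 408 without a trend and 1433 with limma-voom on the recovered reads, and 115 (without VEH replicate 3) to 1116 (without VEH replicate 2) with 1 library left out. The cause was not tested. In the fit with the replicate block, 489 genes were called in muscle and 305 in bone, with 2 and 0 members, and no member's call changed. Deviations of samples with the same number correlated at -0.089 to 0.008 in muscle and at -0.109 to 0.188 in bone, where replicates 3 and 4 but not 1 and 2 correlated best with their own number. In muscle no replicate did, and the numbers were not taken as pairs.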
